A study of Mus musculus with 15 samples.

Results

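The time interaction of the Foxl2 knockdown asks how far the response to Foxl2 siRNA differed between 54 h and 30 h after transfection. For each gene it is the difference between Foxl2 siRNA and scrambled siRNA at 54 h minus the same difference at 30 h, on the log2 scale, so that a positive value means relatively more RNA at 54 h. It uses 12 of the 15 libraries of the study, 3 in each of 4 groups. The files list 24490 genes besides 92 spike-in rows, and 14907 genes had enough counts to be tested. All cells were primary granulosa cells from the ovaries of 8-week-old female mice of the RjOrl:SWISS strain. They were transfected in culture with 30 pmol of siRNA, given as pools of 3, and with the lipid reagent Lipofectamine RNAiMax. The labels print identical catalogue numbers for the pools against Foxl2 and against Esr2 and list several pool compositions without tying one to a library, so which siRNAs each library received cannot be told from them. The 4 groups were scrambled non-targeting siRNA at 30 h, Foxl2 siRNA at 30 h, scrambled siRNA at 54 h and Foxl2 siRNA at 54 h. Every group, the controls included, had therefore been transfected, and no group shows untransfected cells. The remaining group of the study, Esr2 siRNA at 30 h, entered only the estimate of the spread. Nothing in the labels ties the 3 libraries of a group to different dishes or mice, so every p-value is set against a spread between libraries that may be technical.

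Foxl2 encodes a forkhead transcription factor of granulosa cells, the somatic cells that surround the oocyte, support it and make oestradiol. Loss of Foxl2 in the adult mouse ovary is known to let granulosa cells take on features of Sertoli cells, their counterpart in the testis, with Sox9 as the best known marker. An siRNA lowers its target within hours, whereas genes further down a regulatory cascade can respond later. A difference between 2 time points in culture can arise in either arm, because control cells also change as they grow, settle and contact each other. The interaction was therefore split throughout into the change of the Foxl2 siRNA arm from 30 h to 54 h and that of the scrambled arm over the same time, called the control arm below.

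The 12 libraries held 44976872 to 59550065 counts in genes, so that 3 counts in a library correspond to 0.0504 to 0.0667 CPM, the counts scaled to a common library size. Foxl2 itself was 174, 152 and 143 CPM in the scrambled libraries at 30 h and 33.8, 28.4 and 65.4 CPM with Foxl2 siRNA. The 54 h values were 189, 154 and 166 CPM in scrambled and 33.7, 57.5 and 25.2 CPM in Foxl2 siRNA libraries. In the 3 Esr2 siRNA libraries at 30 h, Foxl2 was 112, 128 and 114 CPM and Esr2 12.9, 14.5 and 13.9 CPM, all below the scrambled libraries of that time. The Foxl2 siRNA and scrambled groups did not overlap at either time, and the libraries with the most Foxl2 left were replicate 3 at 30 h and replicate 2 at 54 h. The knockdown was 3.68-fold at 30 h and 4.36-fold at 54 h. Its own interaction was −0.24 ± 0.42 (log2 ± SE), with a 95% interval from −1.15 to 0.66, and it changed sign to 0.21 without Foxl2 siRNA replicate 3 at 30 h. The Foxl2 siRNA groups were more spread out than the controls. The median SD of log2 CPM over all tested genes was 0.083 and 0.066 in the scrambled groups at 30 h and 54 h, against 0.16 and 0.18 in the Foxl2 siRNA groups.

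The response to Foxl2 siRNA was larger and wider at 54 h. Foxl2 siRNA changed 1936 genes at 30 h (13.0% of those tested; 945 or 6.34% higher and 991 or 6.65% lower) and 5787 at 54 h (38.8%; 2755 or 18.5% higher and 3032 or 20.3% lower), by edgeR's quasi-likelihood test at an adjusted p under 0.05. Of these, 1822 were called at both times in the same direction and 0 in opposite directions. The estimate was further from 0 at 54 h for 789 of the 945 genes higher at 30 h (83.5%) and for 814 of the 991 lower genes (82.1%). These shares compare estimates that share no library, but the 30 h estimates also chose the genes, so they are a description.

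The amplitude differed between libraries as well as between times. Over the 945 genes higher at 30 h, the median log2 difference from the scrambled mean of the same time was 0.66, 0.65 and 0.44 in the 3 libraries at 30 h. The 3 libraries at 54 h gave 0.90, 0.70 and 0.80. Over the 991 lower genes it was −0.55, −0.59 and −0.44 at 30 h, then −0.77, −0.62 and −0.72 at 54 h. Every 54 h library stood further from its control than every 30 h library, and the smallest values of each time came from the libraries with the most residual Foxl2. Over the same time the median of these genes moved by −0.01 and 0.03 in the scrambled arm.

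A test of the time difference itself called 1 gene at an adjusted p under 0.05, Gadd45b (0.00671% of those tested). At an adjusted p under 0.1 there were 16. At an unadjusted p under 0.05 there were 1510 (10.1%), of which 794 had a higher interaction (5.33%) and 716 a lower one (4.80%). DESeq2 called 210 genes (1.41%; 0.798% higher, 0.610% lower) and limma voom with library weights 1056 (7.08%; 3.27% higher, 3.82% lower). Leaving out Foxl2 siRNA replicate 2 at 54 h raised edgeR's count to 904 (6.00% of 15076 tested; 2.16% higher, 3.84% lower), of which 590 had an unadjusted p under 0.05 with all libraries. Leaving out Foxl2 siRNA replicate 3 at 54 h gave 16, Foxl2 siRNA replicate 2 at 30 h gave 3 and scrambled replicate 2 at 54 h gave 2. The number of time-dependent genes thus rested on the 54 h Foxl2 siRNA libraries and on the test.

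Responses that were larger at 54 h dominated. Of the 1510 genes with an unadjusted p under 0.05, 1279 had the same direction at both times and a larger estimate at 54 h, 668 of them higher and 611 lower. Another 218 had estimates of opposite sign, 120 with a higher interaction and 98 with a lower one, and 13 had a smaller estimate at 54 h. Among the 904 genes called without Foxl2 siRNA replicate 2 at 54 h, 820 had a larger estimate at 54 h, 81 had opposite signs and 3 had a smaller estimate. The median absolute log2 difference over the 1510 genes was 0.27 at 30 h and 0.75 at 54 h, against 0.17 and 0.26 over all tested genes. The interaction that chose these genes holds both estimates, so the counts and medians here are a description.

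**Figure D1:**
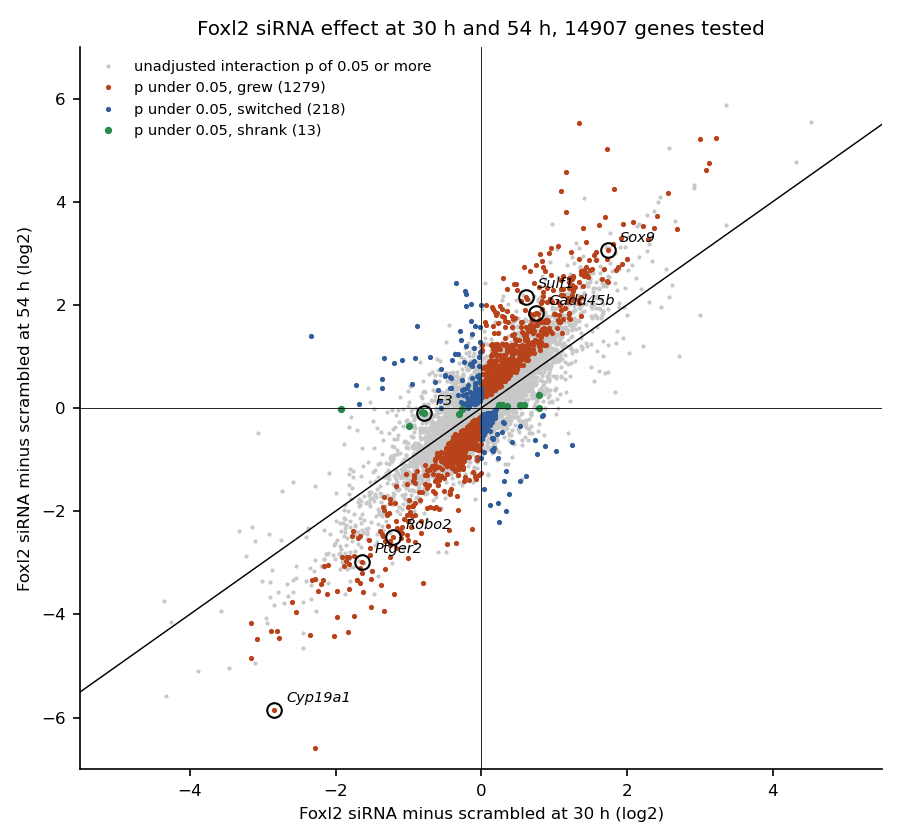
Each point is 1 of the 14907 tested genes, placed by its log2 difference between Foxl2 siRNA and scrambled siRNA at 30 h (horizontal axis) and at 54 h (vertical axis). The line marks equal differences; of the 1510 coloured genes with an unadjusted interaction p under 0.05, 1279 grew, 218 switched sign and 13 shrank by their estimates, and circles mark genes named in the text.

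Gadd45b, a stress-inducible regulator of MAP kinase signalling and DNA demethylation, was 30.7, 29.2 and 27.7 CPM in scrambled and 45.4, 51.7 and 50.6 CPM in Foxl2 siRNA libraries at 30 h. At 54 h it was 20.2, 25.4 and 22.8 CPM in scrambled and 86.5, 77.3 and 81.1 CPM in Foxl2 siRNA libraries. All 4 groups were separate: Foxl2 siRNA libraries were higher at both times, rose over time, and the scrambled libraries were lower at 54 h than at 30 h. The difference was 1.68-fold at 30 h and 3.58-fold at 54 h, and the interaction was 1.09 ± 0.12 (95% interval 0.83 to 1.34, adjusted p = 0.00778). The Foxl2 siRNA arm rose by 0.73 (adjusted p = 0.000947) and the control arm moved by −0.36 (adjusted p = 0.34), so that the control arm made up 32.9% of the interaction. The call held in each of the 12 fits without 1 library, with interactions from 1.01 to 1.16 and adjusted p from 0.00229 to 0.045. The gene lies on chromosome 10 at 80930073 to 80932204 on the plus strand (GRCm38, GENCODE vM21).

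The 250 bases before the RefSeq start of Gadd45b are shown because it is the gene with a time interaction called by edgeR. They were read from RefSeq's promoter table for GRCm38.p6 at chr10:80929841-80930090, plus strand, with the letters TATAAA and CCAAT, searched on both strands, in capitals:
Gadd45b promoter: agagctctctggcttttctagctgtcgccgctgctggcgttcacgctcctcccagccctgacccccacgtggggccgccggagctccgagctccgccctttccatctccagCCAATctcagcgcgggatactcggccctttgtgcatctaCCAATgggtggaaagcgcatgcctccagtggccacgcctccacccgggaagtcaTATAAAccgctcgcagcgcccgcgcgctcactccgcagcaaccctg
TATAAA begins at position −46 and CCAAT at −139 and −100 from the RefSeq start. The GENCODE start of the gene given above differs from it and lies within the 250 bases printed. TATAAA occurs in such windows of 920 of 11216 tested genes with a listed promoter (8.20%) and CCAAT in 4528 (40.4%). The letters GTAAACA and ATAAACA, which forkhead factors are known to bind, and GTCAAGG, a site bound by nuclear receptors such as Nr5a1, were also searched on both strands. At least 1 of these 3 motifs occurred within 250 bases before to 50 after the start in 47 of 495 larger-at-54 h genes with a higher interaction (9.49%), 48 of 476 with a lower one (10.1%) and 1037 of all 11216 genes (9.25%). The shares were close to that of all genes in both directions.

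Among genes higher with Foxl2 siRNA, the 7 that follow Gadd45b by p each had the same direction at both times and a larger estimate at 54 h, but did not pass in the interaction (adjusted p from 0.0654 to 0.0961). Sulf1, which removes sulfates from heparan sulfate at the cell surface, had the largest difference of these 7. It was 33.9, 29.9 and 33.9 CPM in scrambled and 61.6, 49.1 and 38.2 CPM in Foxl2 siRNA libraries at 30 h, then 36.6, 36.0 and 36.7 CPM in scrambled and 215, 146 and 128 CPM in Foxl2 siRNA libraries at 54 h. The groups did not overlap at either time, and the difference went from 1.53-fold to 4.47-fold. Its interaction was 1.55 ± 0.25 (adjusted p = 0.0766), with a control arm of 0.16. Msrb3, a methionine sulfoxide reductase, had an interaction of 0.57 ± 0.08, Csrnp1, a nuclear protein induced by axin, one of 0.54 ± 0.10, and 2010111I01Rik, an aminopeptidase gene that shares exonic bases with Fancc on the opposite strand, one of 0.74 ± 0.13. The other 3 were Bcar1, Stim1 and Rusc2, whose control arms are described with the control drift. Without Foxl2 siRNA replicate 2 at 54 h, the fit with 904 calls, all 8 genes passed, with adjusted p from 0.00229 to 0.0141. Each other fit without 1 library called 1 to 13 genes with a higher interaction among all tested genes, Gadd45b among them.

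Among genes lower with Foxl2 siRNA, the axon guidance receptors Robo2 and Robo1 had the lowest p. Robo2 was 334, 323 and 337 CPM in scrambled and 133, 130 and 168 CPM in Foxl2 siRNA libraries at 30 h, and 347, 334 and 345 against 51.8, 74.3 and 55.6 CPM at 54 h. The scrambled libraries overlapped between times, whereas all Foxl2 siRNA libraries were lower at 54 h than at 30 h. The deficit went from 2.31-fold to 5.65-fold, an interaction of −1.29 ± 0.20 (adjusted p = 0.0742).

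Robo1 was 63.5, 67.8 and 67.6 CPM in scrambled and 44.8, 49.4 and 39.0 CPM in Foxl2 siRNA libraries at 30 h. The later values were 63.3, 63.8 and 64.6 against 23.7, 21.8 and 27.8 CPM. Its interaction was −0.81 ± 0.13 (adjusted p = 0.0766), again with a control arm near 0 (−0.05). Both genes code for receptors of Slit proteins and lie on chromosome 16, Robo2 at 73891839 to 74411825 on the minus strand and Robo1 at 72308306 to 73046095 on the plus strand.

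Ptger2, a receptor for prostaglandin E2, was 67.4, 57.3 and 60.8 CPM in scrambled and 18.4, 17.1 and 24.0 CPM in Foxl2 siRNA libraries at 30 h, then 68.0, 69.8 and 68.7 against 6.07, 10.2 and 9.86 CPM at 54 h. It fell at both times, by 3.12-fold and then 7.89-fold, and its interaction was −1.34 ± 0.23 (adjusted p = 0.0961). Far1, which makes fatty alcohols for ether lipids, was 519, 475 and 647 CPM with Foxl2 siRNA at 30 h and 307, 381 and 296 CPM at 54 h, with scrambled libraries between 982 and 1246 CPM. Prkar2b, a regulatory subunit of protein kinase A, had an interaction of −0.95 ± 0.17, and Pde8a, a phosphodiesterase that breaks down cAMP, one of −0.47 ± 0.09. Both were lower with Foxl2 siRNA at both times; cAMP is also the messenger through which Ptger2 is known to signal. The lipid flippase gene Atp10a had an interaction of −0.92 ± 0.18.

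Ccne2 was not called at 30 h, unlike the other 7 genes with a lower interaction. It encodes cyclin E2, which drives entry into S phase. It was 34.8, 37.1 and 37.2 CPM in scrambled and 36.9, 29.4 and 35.0 CPM in Foxl2 siRNA libraries at 30 h, which overlapped. At 54 h it was 37.7, 36.3 and 35.9 against 22.8, 22.7 and 23.2 CPM. The interaction was −0.57 ± 0.10 (adjusted p = 0.0961); its exons share bases with Ints8 on the opposite strand. Without Foxl2 siRNA replicate 2 at 54 h, the fit with 904 calls, all 8 genes with a lower interaction passed, with adjusted p from 0.00229 to 0.0173. Each other fit without 1 library called 0 to 3 genes with a lower interaction among all tested genes.

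**Figure D2:**
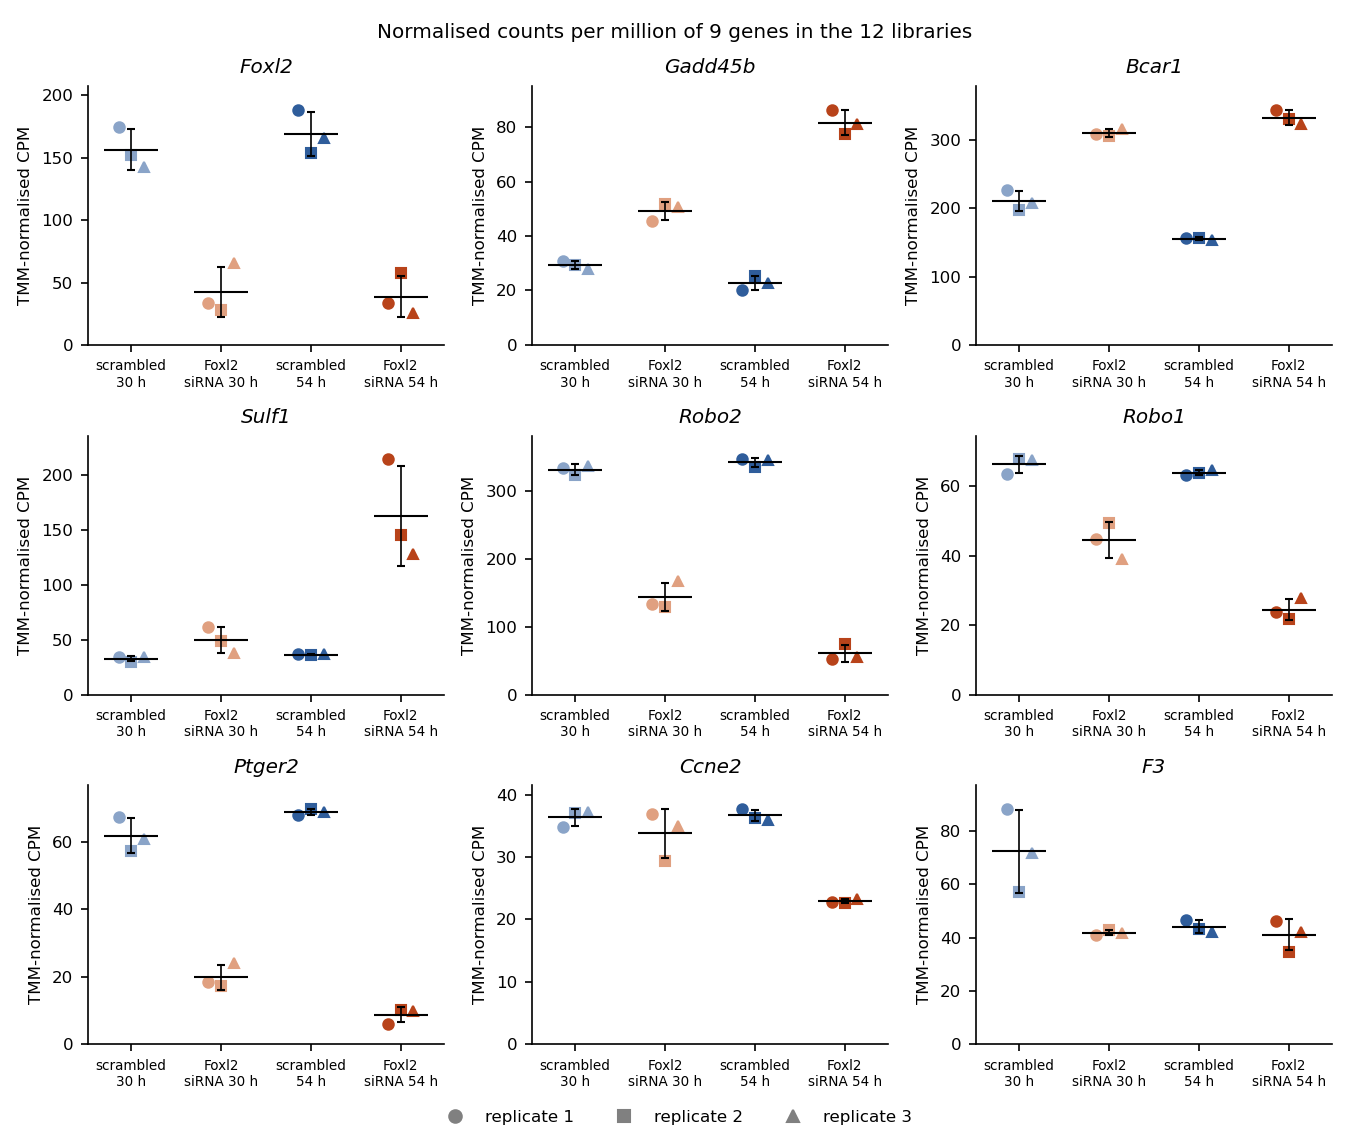
Normalised CPM of 9 genes in each of the 12 libraries (symbols give the replicate number, horizontal bars the group mean, error bars the SD, n = 3). Gadd45b and Sulf1 were highest and Robo2, Robo1 and Ptger2 lowest with Foxl2 siRNA at 54 h, Ccne2 groups overlapped at 30 h and separated at 54 h, Bcar1 was lower in the 54 h than in the 30 h controls, and F3 was highest in the 30 h controls.

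Responses that shrank were few and none passed with all libraries in edgeR. F3, the gene of tissue factor, which starts blood coagulation, was 88.4, 57.2 and 71.7 CPM in scrambled and 41.0, 42.9 and 41.6 CPM in Foxl2 siRNA libraries at 30 h, and 46.7, 43.1 and 42.1 against 46.4, 34.7 and 42.0 CPM at 54 h. The groups separated at 30 h and overlapped at 54 h, and the Foxl2 siRNA libraries of the 2 times overlapped. Its interaction was 0.69 ± 0.19 (adjusted p = 0.237), and the control arm of −0.72 made up 104% of it. Wnt10b, a Wnt ligand, had a difference of 0.53 at 30 h and 0.06 at 54 h, and S1pr1, a sphingosine-1-phosphate receptor, one of −0.82 and −0.07. Ezh2, a histone methyltransferase, went from 0.29 to 0.05, Ero1lb, an oxidase of the endoplasmic reticulum, from 0.35 to 0.04 and the kinase gene Brsk1 from −0.31 to −0.11. These 6 genes were called at 30 h and not at 54 h, and their interactions had adjusted p from 0.237 to 0.461. F3, Wnt10b and S1pr1 passed without Foxl2 siRNA replicate 2 at 54 h (adjusted p = 0.0303, 0.0393 and 0.0182), and F3 passed in DESeq2 (adjusted p = 0.0492). The other fits without 1 library called 0 genes that shrank.

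The 4 genes of lowest p with opposite signs had estimates close to 0 at 30 h. Dusp5, a phosphatase of the MAP kinase ERK, was 4.87, 5.45 and 5.13 CPM in scrambled and 4.86, 5.08 and 4.39 CPM in Foxl2 siRNA libraries at 30 h. By 54 h the values were 3.88, 5.69 and 3.93 against 8.97, 8.29 and 7.69 CPM, which did not overlap. Its interaction was 0.99 ± 0.20 (adjusted p = 0.13). The prion protein gene Prnp went from −0.09 to 0.49 and Srf, the serum response factor, from −0.08 to 0.35. Pcnt, a centrosome component, went from 0.03 to −0.46. None of these 4 was called at 30 h and all 4 were called at 54 h, so the change of sign rests on 30 h values within the spread of the libraries.

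A flat response was defined as a call at both times in the same direction with a 95% interval of the interaction within 1.5-fold and no interaction call. Of the 1822 genes called at both times, 846 met it (46.4%), 372 higher and 474 lower. The interval lay within 1.5-fold for 8051 of all tested genes (54.01%), so the share among responding genes was not above that background. Flat genes had smaller responses, with a median absolute difference of 0.34 at 30 h and 0.47 at 54 h, against 0.56 and 0.81 over all genes called at both times. The 1.5-fold limit is wider than these median responses of the flat genes. A flat gene can therefore have changed by as much as its own response, and the class does not show a constant response. Their number ranged from 338 without scrambled replicate 3 at 30 h to 1401 without Foxl2 siRNA replicate 3 at 30 h, and was 416, 490, 456 and 453 without scrambled replicates 1 and 2 and Foxl2 siRNA replicates 1 and 2 at 30 h.

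Control drift was the smaller arm of most interactions, whereas the number of genes called in it depended on the test. By edgeR 1 gene passed in the control arm, Bcar1 (0 to 3 in other edgeR fits with all scrambled and Foxl2 siRNA libraries), against 1050 in the Foxl2 siRNA arm (7.04% of those tested; 560 or 3.76% higher and 490 or 3.29% lower). At an unadjusted p under 0.05 there were 727 and 3337. DESeq2 called 69 and 1715, and limma voom, which gave each library a weight, 2693 and 1602. Over all tested genes the median absolute change was 0.08 in the control arm and 0.14 in the Foxl2 siRNA arm. For the 1510 genes with an unadjusted interaction p under 0.05, it was 0.10 in the control arm and 0.43 in the Foxl2 siRNA arm. Their median control share of the interaction was 9.53%, against 13.5% over all tested genes. The interaction that chose these genes holds both arms, and the Foxl2 siRNA libraries were the more spread out. These shares are therefore a description, and the part of that spread in them was not tested. The control share was below 25% for 1006 of the 1510 genes (66.6%). These include 549 (36.4% of the 1510) with a share below 0, where the control arm moved so as to reduce the interaction. The share was above 50% for 211 (13.97%), which were 128 of the genes with a higher and 83 of those with a lower interaction. It was above 50% in 33 of 210 genes called by DESeq2 (15.7%), 89 of 1056 by limma voom (8.43%) and 49 of 904 without Foxl2 siRNA replicate 2 at 54 h (5.42%). Under limma voom, 191 of its 1056 genes were called in the control arm and not in the Foxl2 siRNA arm, 701 the other way round.

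**Figure D3:**
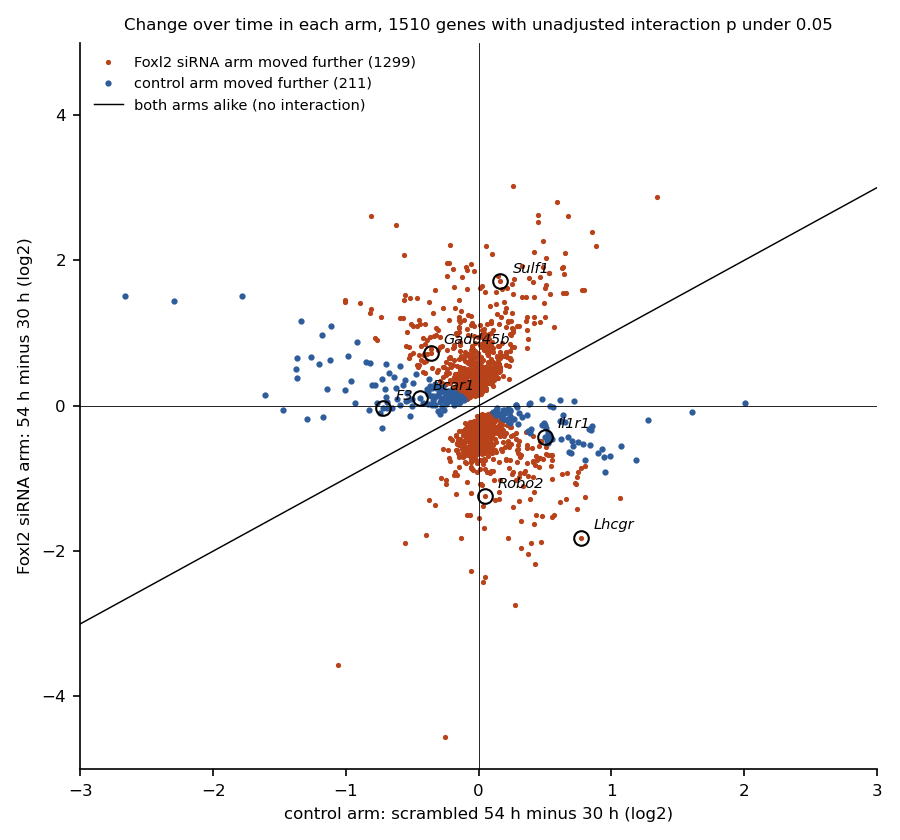
The 1510 genes with an unadjusted interaction p under 0.05, placed by the log2 change from 30 h to 54 h in the scrambled arm (horizontal axis) and in the Foxl2 siRNA arm (vertical axis). The line marks equal change in both arms; the control arm moved further in 211 genes (blue), and circles mark named genes such as Bcar1, F3 and Il1r1 among them.

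Bcar1, a scaffold protein of focal adhesions also known as p130Cas, was the gene that passed in the control arm. It was 227, 198 and 208 CPM in scrambled libraries at 30 h and 156, 157 and 154 CPM at 54 h, a fall of the control arm (−0.44, adjusted p = 0.0467) with no overlap. The call was close to the threshold. It was lost with RLE scaling (adjusted p = 0.0651), without the low-count filter (0.126), in the fit of 12 libraries (0.146) and in 10 of the 12 fits without 1 library (0.0526 to 0.735), and held in the 2 others, without replicate 3 of the Foxl2 siRNA libraries at 30 h or 54 h. It also held in DESeq2 and limma voom, with a control arm between −0.48 and −0.38 in all these fits. Same-numbered scrambled libraries of the 2 times deviated together in all 3 pairs, and with the replicate number as a block 3 genes passed in the control arm, Bcar1 (adjusted p = 0.0479), Rasgrp3 and Sepp1, in place of 1. The control arm held 0 to 2 called genes in the fits without 1 library. With Foxl2 siRNA it was 309, 306 and 316 CPM at 30 h and 345, 331 and 324 CPM at 54 h, an arm change of 0.10 (adjusted p = 0.31). The difference went from 1.47-fold to 2.14-fold, and the control arm made up 81.0% of the interaction of 0.54 ± 0.08 (adjusted p = 0.0654). The other genes of lowest interaction p with a control share above 50% were not called in the control arm. Txnrd1, a thioredoxin reductase, had a share of 67.1%, Rusc2 one of 56.7%, Il1r1, a receptor of interleukin 1, one of 54.3%, Srf one of 51.6% and Stim1, a calcium sensor of the endoplasmic reticulum, one of 51.3%. Il1r1 was 52.2, 68.6 and 58.7 CPM in scrambled libraries at 30 h and 84.3, 86.3 and 83.8 CPM at 54 h, while Foxl2 siRNA libraries were at 31.0, 35.5 and 28.9 and then 20.0, 24.1 and 27.0 CPM. Its arms went in opposite directions by their estimates (0.50 and −0.42), neither of them called. The exons of Rusc2 share bases with Fam166b on the opposite strand.

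Cell cycle genes were lower at 54 h with Foxl2 siRNA, with few or none called at 30 h. In the list of mitosis and spindle genes, 48 of 49 tested genes fell at 54 h and 0 passed at 30 h by edgeR's test, against 20.3% and 6.65% of all genes lower at these times. The median difference was −0.82 at 54 h and −0.24 at 30 h, and the control arm had a median of −0.07. All 49 interactions were below 0, with a median of −0.51 against −0.005 over all genes, and 25 had an unadjusted p under 0.05 (51.0% against 10.1%). In the DNA replication list 44 of 50 genes fell at 54 h and 5 at 30 h, all 50 interactions were below 0 with a median of −0.40, and 23 had an unadjusted p under 0.05. No interaction in either list passed at an adjusted p under 0.05 in edgeR. DESeq2 called 1 mitosis and 4 replication genes, against 1.41% of all genes. Limma voom called 45 and 29, against 7.08% of all genes.

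The libraries of a group differed in these lists. Relative to the scrambled mean at 30 h, the median of the mitosis list was −0.27, −0.53 and 0.00 in the 3 Foxl2 siRNA libraries at 30 h and −1.15, −0.43 and −1.04 at 54 h. The Foxl2 siRNA libraries of the 2 times overlapped, since replicate 2 at 54 h lay above replicate 2 at 30 h. Without that 54 h library, 40 of the 49 mitosis genes and 25 of the 50 replication genes passed, all lower. Over all genes 3.84% passed lower in that fit. Leaving out any 1 library gave 9 to 49 mitosis and 13 to 38 replication genes at an unadjusted p under 0.05, fewest without Foxl2 siRNA replicate 3 at 30 h. The mitosis count was 49 without Foxl2 siRNA replicate 2 at 54 h and 39 without replicate 2 at 30 h, but 11 and 10 without Foxl2 siRNA replicates 1 and 3 at 54 h, 13 without scrambled replicate 2 at 30 h and 16 without scrambled replicate 1 at 54 h. The replication count was 38 without either Foxl2 siRNA replicate 2, and 14, 15 and 15 without Foxl2 siRNA replicates 1 and 3 and scrambled replicate 1 at 54 h. In bulk RNA, fewer cycling cells and less of these RNAs per cell cannot be told apart.

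Single genes showed the pattern; those named here and for the lists that follow were taken by lowest p after the values were seen. Ncapg, a condensin subunit, was 47.6, 43.4 and 45.4 CPM in scrambled and 40.8, 33.3 and 46.8 CPM in Foxl2 siRNA libraries at 30 h, then 48.5, 46.1 and 43.8 against 20.1, 30.1 and 21.5 CPM at 54 h. Its interaction was −0.77 ± 0.20 (adjusted p = 0.2; 0.00642 without Foxl2 siRNA replicate 2 at 54 h). Bub1, a spindle checkpoint kinase, and Nuf2, a kinetochore component, had interactions of −0.67 ± 0.20 and −0.60 ± 0.18. Clspn, which relays the replication checkpoint, was 36.3, 31.3 and 35.8 CPM with Foxl2 siRNA at 30 h and 17.0, 23.9 and 18.9 CPM at 54 h, while scrambled libraries ranged from 39.4 to 47.2 CPM over both times. Its interaction was −0.69 ± 0.15 and that of Mcm10, a DNA replication factor, −0.76 ± 0.17 (adjusted p = 0.13 and 0.135).

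**Figure D4:**
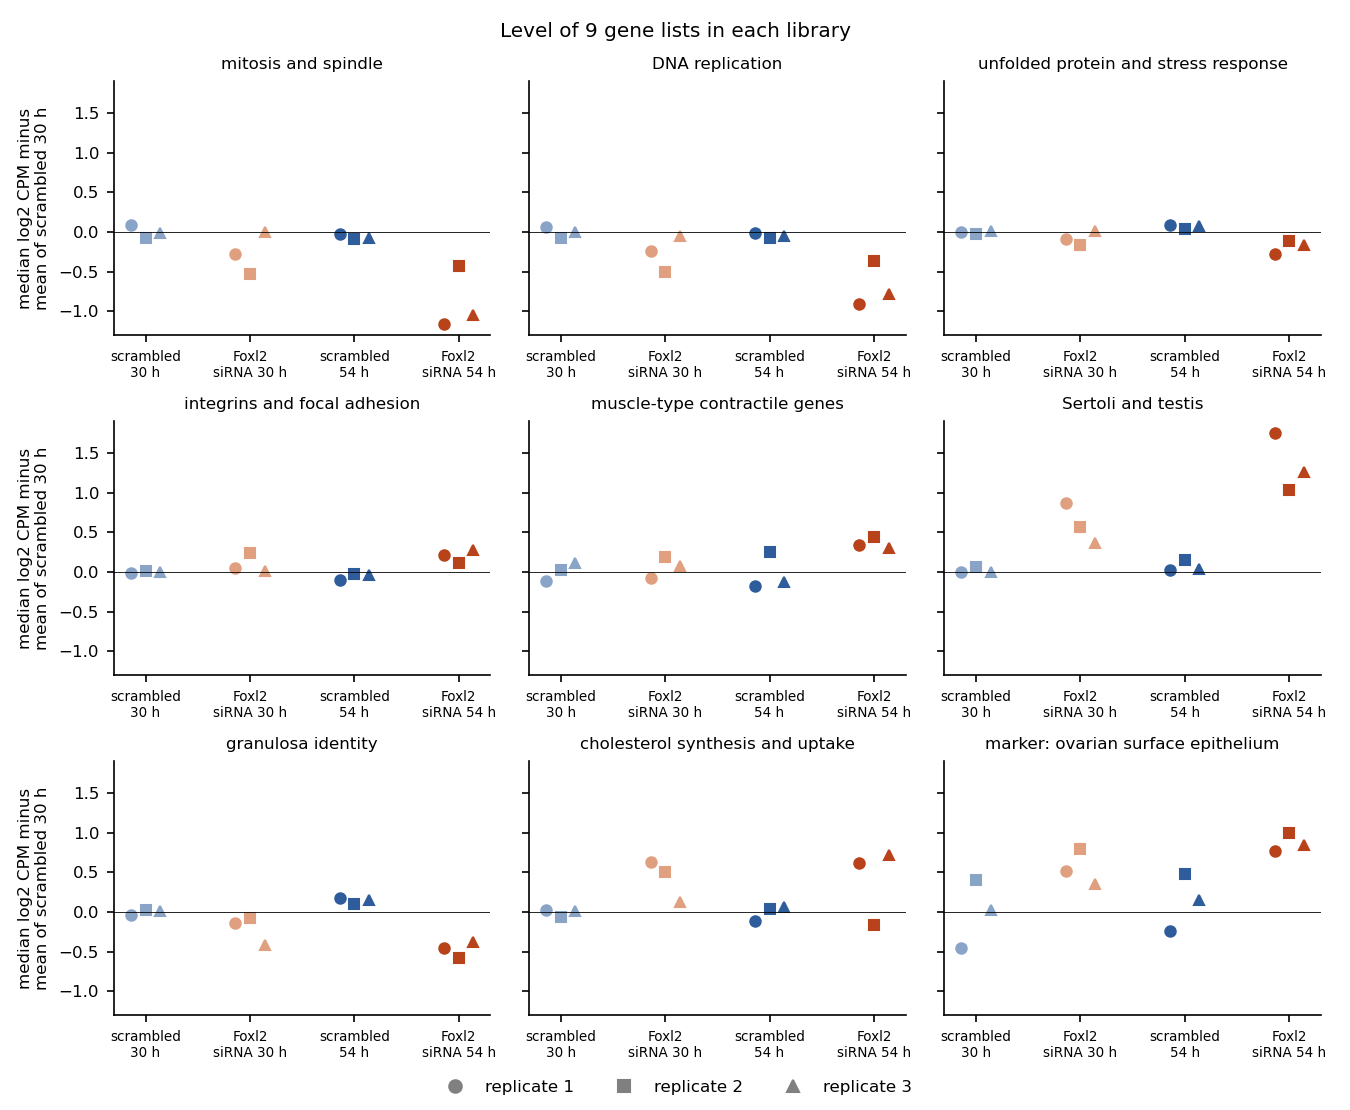
Each point is a library, placed by the median over the genes of a list of its log2 CPM minus the mean of the scrambled libraries at 30 h (symbols give the replicate number). In the mitosis and DNA replication lists Foxl2 siRNA replicates 1 and 3 at 54 h were lowest and replicate 2 at 54 h stood apart from them; in the cholesterol list it was at −0.17 against 0.62 and 0.72.

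Adhesion and contractile genes leaned the other way. Of 43 tested genes of integrins and focal adhesion, 20 rose and 7 fell at 54 h, against 6 and 4 at 30 h. Over all genes 18.5% were higher and 20.3% lower at 54 h, and 6.34% and 6.65% at 30 h, so the 7 lower members were no larger a share than the background. In the interaction 14 members had an unadjusted p under 0.05 (12 higher, 2 lower, 32.6%). Over all genes 10.1% did, 5.33% higher and 4.80% lower. The fits without 1 library gave 9 to 15 higher and 0 to 3 lower members. Besides Bcar1, the list included Ilk, the integrin-linked kinase, with a difference of 0.04 at 30 h and 0.40 at 54 h, and Actn4, an actin crosslinker, with 0.19 and 0.65. Ilk had a control share of 49.0% and Actn4 one of 34.9%. The list's median interaction was 0.19, with medians of −0.07 in the control arm and 0.06 in the Foxl2 siRNA arm. Without Foxl2 siRNA replicate 2 at 54 h, 6 members passed higher and 2 lower, against 2.16% and 3.84% of all genes. With all libraries 0 passed in edgeR, 7 in DESeq2 (1.41% of all genes) and 12 in limma voom (7.08% of all genes).

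Muscle-type contractile genes had 12 of 34 members with an unadjusted p under 0.05 (35.3%), all higher, and a median interaction of 0.44. Over all genes 10.1% were below that p, 5.33% of them higher than 0 and 4.80% lower as shares of all genes. Smooth muscle and pericyte markers had a median interaction of 0.42 with 11 of 13 above 0, and a median of −0.42 in the control arm, against −0.05 for the contractile list. The lists share 7 tested genes, none of which had an unadjusted p under 0.05; without them the contractile list had a median interaction of 0.51 over 27 genes, with a median of 0.04 in the control arm and all 12 genes below that p. The part of these cells in the contractile values was not tested beyond that. Mybpc3, a myosin-binding protein best known from heart muscle, was 20.4, 28.3 and 23.3 CPM in scrambled and 85.2, 95.6 and 124 CPM in Foxl2 siRNA libraries at 30 h. At 54 h it was 28.4, 22.8 and 23.0 against 275, 445 and 186 CPM, and its interaction was 1.53 ± 0.38 (adjusted p = 0.2). Ryr2, a calcium release channel, went from a difference of 2.29 to 3.28. Tpm1, a tropomyosin, was 1403, 1300 and 1344 CPM in scrambled libraries at 30 h and 1026, 1126 and 1090 CPM at 54 h, and its control share was 70.4%.

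Among cell-cell junction genes the members of lowest p went in different directions. Pcdh7, a protocadherin, fell at both times (−1.17 and −2.18, interaction −1.01 ± 0.23), and so did Pcdh18 (−1.77 and −2.48), whereas Cdh3, P-cadherin, rose at both (1.21 and 1.74). Of 40 tested members 8 had an unadjusted p under 0.05, 6 higher and 2 lower (20.0%). The 6 became 3 without Foxl2 siRNA replicate 1 at 54 h or replicate 3 at 30 h and 10 without Foxl2 siRNA replicate 2 at 54 h. In the list of guidance and migration genes, which holds Robo1 and Robo2, 9 of 52 did (17.3%), 6 higher and 3 lower, with 2 to 9 and 3 to 8 in the fits without 1 library. Next by p among its members of at least 5 CPM, the semaphorin gene Sema5a fell at both times (−0.54 and −0.98) with a control share of 59.1%. In the structural matrix list 7 of 58 did (12.1%), close to the 10.1% of all genes; the 4 higher and 3 lower became 9 and 8 without Foxl2 siRNA replicate 2 at 54 h. Col4a5, a basement membrane collagen, was 756, 764 and 684 CPM with Foxl2 siRNA at 30 h and 1067, 1028 and 961 CPM at 54 h, with scrambled libraries between 421 and 477 CPM. Spp1, osteopontin, fell from scrambled values of 572 to 738 CPM to 317, 258 and 266 CPM at 30 h and 107, 66.0 and 125 CPM at 54 h, an interaction of −1.41 ± 0.32 (adjusted p = 0.135).

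Immediate early genes had a median interaction near that of all genes. Of 29 tested members 5 had an unadjusted p under 0.05, all higher (17.2%, against 5.33% of all genes higher), and the median interaction was 0.02. There were 3 higher without Foxl2 siRNA replicate 1 at 54 h, and 3 higher and 2 lower without Foxl2 siRNA replicate 3 at 30 h. Ctgf, a matricellular protein and a known target of YAP, was 671, 520 and 580 CPM in scrambled and 784, 805 and 701 CPM in Foxl2 siRNA libraries at 30 h, and 488, 467 and 465 against 1856, 1088 and 1562 CPM at 54 h. Its interaction was 1.29 ± 0.31 (adjusted p = 0.177; 0.016 without Foxl2 siRNA replicate 2 at 54 h). For Cyr61, a related gene, the Foxl2 siRNA arm moved by −0.04 and the control arm by −0.69, which made up 106% of its interaction of 0.65 ± 0.20.

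The Sertoli and testis list was higher at both times, with 5 of 22 tested genes called higher at 30 h, and 16 higher and 3 lower at 54 h; of all genes, 6.34% were higher at 30 h, and 18.5% higher and 20.3% lower at 54 h. Its median difference was 0.71 at 30 h and 1.38 at 54 h, and its median interaction was 0.59. An unadjusted interaction p under 0.05 was found for 4 members (18.2%), all higher, against 5.33% of all genes higher. That count rested on single libraries. It was 1 higher and 0 lower without Foxl2 siRNA replicate 1 at 54 h, where the median interaction was 0.26, or without scrambled replicate 3 at 54 h, and 1 higher and 1 lower without Foxl2 siRNA replicate 3 at 30 h. Leaving out scrambled replicate 1 or 2 or Foxl2 siRNA replicate 3 at 54 h gave 2 higher, Foxl2 siRNA replicate 1 at 30 h gave 7 higher, and Foxl2 siRNA replicate 2 at 54 h gave 8 higher and 2 lower. Sox9 was 10.1, 8.69 and 9.47 CPM in scrambled and 44.3, 33.1 and 16.9 CPM in Foxl2 siRNA libraries at 30 h, then 9.65, 7.87 and 8.01 against 110, 31.4 and 72.3 CPM at 54 h. The Foxl2 siRNA libraries of the 2 times overlapped, and the interaction was 1.33 ± 0.53 (adjusted p = 0.421). Without 1 library it ranged from 0.87 (adjusted p = 0.775, without Foxl2 siRNA replicate 1 at 54 h) to 1.69 (adjusted p = 0.0311, without Foxl2 siRNA replicate 2 at 54 h), and the latter was the single one of these 12 fits in which it passed. Limma voom called it with all libraries (adjusted p = 0.0388). Sox8 had differences of 1.52 and 1.77 and an interaction of 0.26 ± 0.25, which turned to −0.03 under limma voom. Trf, transferrin, went from 0.20 to 1.13 and Aard from 0.81 to 2.99. Amh, anti-Müllerian hormone, was under 2 CPM in every library and not called in the interaction, and Dmrt1, a testis-determining factor, did not pass the low-count filter. Wt1 and Gata4, factors shared by both cell types, rose at both times, with interactions of 0.49 ± 0.23 and 0.16 ± 0.13.

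Granulosa identity genes were more often lower than higher at both times. Of 25 tested, 2 rose and 9 fell at 30 h and 4 rose and 13 fell at 54 h, against 6.34% higher and 6.65% lower of all genes at 30 h and 18.5% and 20.3% at 54 h. The list includes Foxl2 itself, the target of the siRNA. It had a median interaction of −0.31 and a median of 0.15 in the control arm. At an unadjusted interaction p under 0.05, 1 member was higher and 5 were lower (24%). Over all genes 5.33% were higher and 4.80% lower. The fits without 1 library gave 0 to 1 higher and 4 to 10 lower members. Nap1l5, a nucleosome assembly protein gene, was 1.45, 2.59 and 5.47 CPM with Foxl2 siRNA at 30 h and 0.968, 1.62 and 1.39 CPM at 54 h, while scrambled libraries went from 13.7, 18.2 and 16.5 to 23.5, 31.1 and 29.8 CPM. Its interaction was −2.05 ± 0.50 (adjusted p = 0.183) with a control share of 39.0%. It is shown because its promoter window held both forkhead motifs searched, GTAAACA at −239 and ATAAACA at −213, in capitals in these 60 bases at chr6:58907317-58907376, minus strand (RefSeq, GRCm38.p6):
Nap1l5 promoter: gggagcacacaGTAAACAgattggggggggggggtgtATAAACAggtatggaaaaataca
Among all 11216 genes 346 held GTAAACA (3.08%) and 347 ATAAACA (3.09%). For Fam13a, another member, the control share was 74.9%. Nr5a2, a nuclear receptor of granulosa and luteal cells, went from −0.15 to −0.66 and Fst, follistatin, which binds activin, from −2.34 to −3.43. Esr2, the oestrogen receptor of granulosa cells, was 29.2, 25.004 and 45.5 CPM with Foxl2 siRNA at 30 h and 17.97, 49.3 and 15.7 CPM at 54 h, with 60.4 to 74.2 CPM in scrambled libraries. Given the catalogue numbers shared between the pools, whether the Foxl2 pools also act on Esr2 directly was not tested. Esr2 was called at 54 h and not at 30 h, and its interaction of −0.44 ± 0.47 did not pass (adjusted p = 0.84; −1.16 and 0.0225 without Foxl2 siRNA replicate 2 at 54 h). Esr1 had an interaction of −0.04 ± 0.33.

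Steroidogenic and ovulatory genes did not pass in the interaction with all libraries in edgeR. Of 20 steroid synthesis genes 4 had an unadjusted p under 0.05 (20.0%), all lower. Over all genes the share was 10.1%, with 4.80% lower. Cyp19a1, aromatase, which makes oestradiol, had 126, 151 and 169 counts in scrambled and 2, 9 and 49 counts in Foxl2 siRNA libraries at 30 h, then 179, 169 and 225 against 2, 5 and 2 counts at 54 h. Its interaction of −3.02 ± 1.03 (adjusted p = 0.338) rests on these few counts and was −1.19 without Foxl2 siRNA replicate 3 at 30 h. Hsd3b1, which forms progesterone from pregnenolone, was 1327, 1552 and 2042 CPM with Foxl2 siRNA at 30 h and 943, 1584 and 1200 CPM at 54 h, with an interaction of −0.66 ± 0.25 (adjusted p = 0.385). Cyp11a1, the first enzyme of steroid synthesis, was higher by 0.68 and 0.70, and Star, which carries cholesterol into mitochondria, by 0.52 at 30 h, which did not pass, and by 1.09 at 54 h, which did. Star was 847, 295 and 775 CPM with Foxl2 siRNA at 54 h, where replicate 2 lay at the level of the scrambled libraries (286, 306 and 306 CPM). Its interaction went from 0.58 ± 0.42 to 0.92 (adjusted p = 0.0446) without that library. Nr5a1, a regulator of steroidogenic genes, differed by −0.21 and −0.34, and the steroid enzyme gene Hsd11b2 by −1.87 and −2.41.

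The inhibin and activin subunit genes Inha, Inhba and Inhbb were not called at either time and had interactions of −0.16 ± 0.25, −0.24 ± 0.30 and −0.06 ± 0.34. Ptgs2, which makes prostaglandins at ovulation, fell at both times (−1.45 and −1.73), and Grem1, a BMP antagonist, likewise (−2.93 and −4.17). Grem1 was 0.902, 12.3 and 1.25 CPM with Foxl2 siRNA at 54 h, and its interaction of −1.24 ± 1.03 became −3.42 (adjusted p = 0.0199) without replicate 2. Of 28 tested ovulation and cumulus genes 7 had an unadjusted p under 0.05 (25%), 2 higher and 5 lower. Over all genes 10.1% did, 5.33% higher and 4.80% lower. The fits without 1 library gave 0 to 3 higher members, and 11 lower members without Foxl2 siRNA replicate 3 at 54 h. Besides Ptger2 the 7 genes included Runx2, a transcription factor induced at ovulation, which went from 0.08 to −0.32. They also included Ptx3, a cumulus matrix protein, which went from −0.43 to 0.61 at 3 to 8 CPM. Pgr, the progesterone receptor, had an interaction of 0.07 ± 0.97, and Fshr, the FSH receptor, was under 1 CPM in every library. Nr0b1 did not pass the low-count filter.

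Lhcgr, the receptor for luteinising hormone, had the largest difference among genes at an adjusted p under 0.1, at very low counts. It had 23, 17 and 30 counts in scrambled and 9, 10 and 19 in Foxl2 siRNA libraries at 30 h, and 37, 35 and 53 against 2, 5 and 4 counts at 54 h. Its interaction was −2.58 ± 0.46 (adjusted p = 0.0961), and the control arm moved by 0.77. Of 66 named genes with a promoter window, 4 held at least 1 of the 3 searched motifs (6.06%): Lhcgr, Fshr, Nuf2 and Nap1l5. The window of Lhcgr is shown beside its values for GTCAAGG, and the 60 bases around the match are at chr17:88792105-88792164, minus strand (RefSeq, GRCm38.p6), with the motif at position −120 in capitals:
Lhcgr promoter: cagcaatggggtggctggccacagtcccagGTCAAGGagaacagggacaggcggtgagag
GTCAAGG occurred in the windows of 412 of 11216 genes (3.67%), and the match alone is a description of these letters.

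The stress lists leaned in different directions. In the p53 and apoptosis list 8 of 36 genes had an unadjusted p under 0.05 (22.2%), against 10.1% of all genes. All 8 were higher, against 5.33% of all genes, and 5 were without Foxl2 siRNA replicate 3 at 30 h. Of the 36 interactions 33 were above 0, with a median of 0.17. Gadd45b belongs to this list. Phlda3, a p53 target that restrains AKT, went from 0.09 to 0.53 with a control share of 57.1%, and Bcl2l1, an inhibitor of apoptosis, from 0.34 to 0.66. In the list of the unfolded protein and stress response 10 of 34 genes had an unadjusted p under 0.05 lower and 2 higher (35.3%). Over all genes 4.80% were lower and 5.33% higher at that p. Of the 34 interactions 23 were below 0 and 11 above, with a median of −0.13. The 10 lower genes became 4 without Foxl2 siRNA replicate 1 at 54 h and 5 without Foxl2 siRNA replicate 3 at 30 h, with up to 15 in the other fits without 1 library. Hyou1, a chaperone of the endoplasmic reticulum, was 307, 300 and 326 CPM with Foxl2 siRNA at 30 h and 231, 276 and 245 CPM at 54 h, with scrambled libraries between 354 and 396 CPM. Its interaction was −0.41 ± 0.09 (adjusted p = 0.141). Hspa5, the chaperone BiP, went from −0.06 to −0.39 and Edem1, which takes misfolded glycoproteins to degradation, from −0.30 to −0.59.

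Cholesterol synthesis genes showed a response of about the same median size at both times, 0.47 at 30 h and 0.43 at 54 h, and 0 of 25 had an unadjusted interaction p under 0.05 in edgeR, with 0 called by DESeq2 and by limma voom. Foxl2 siRNA libraries ranged widely in this list, from 0.13 to 0.64 at 30 h and from −0.17 (replicate 2) to 0.72 at 54 h. Without that library the median interaction was 0.21 in place of −0.03 and 4 genes had an unadjusted p under 0.05 higher and 1 lower. The interferon list had a median of 0.31 at 30 h and 0.48 at 54 h, with 1 of 40 genes at an unadjusted p under 0.05. Its median interaction was 0.24, and 33 of 40 interactions were above 0. By limma voom 4 of its genes were called, all higher, against 3.27% of all genes. Relative to the scrambled mean at 30 h, its Foxl2 siRNA libraries were at −0.24, 0.52 and 0.48 at 30 h. At 54 h they were at 0.28, 0.33 and 0.96. The lists of Wnt, TGF-beta and BMP, protease, glycolysis and luteal genes had between 7.69% and 23.8% of members at an unadjusted p under 0.05. Over all genes the share was 10.1%. Their median interactions lay between −0.04 and 0.08.

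**Figure D5:**
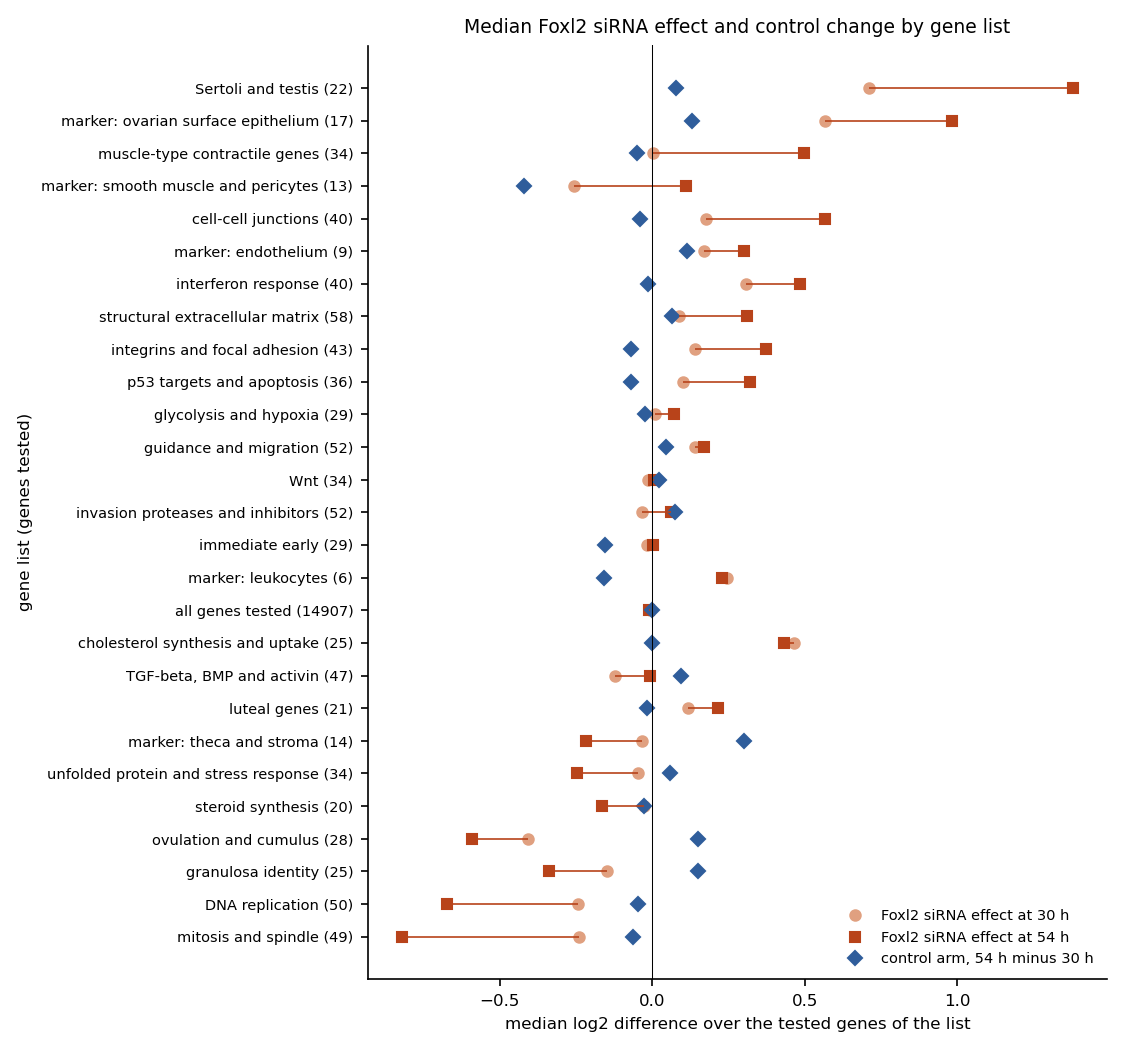
Median log2 difference over the tested genes of each list: Foxl2 siRNA against scrambled at 30 h (circles) and at 54 h (squares), joined by a line, and scrambled 54 h against scrambled 30 h (diamonds). Lists are in order of their median interaction; mitosis and DNA replication lie at the low end, Sertoli and testis genes at the high end, and the 2 Foxl2 siRNA medians of the cholesterol list nearly coincide.

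Markers of other cell types bear on which cells gave these values. Granulosa identity genes summed to 6585 to 7964 CPM in the scrambled libraries. Leukocyte markers summed to at most 8.92 CPM, endothelial markers to at most 21.6 CPM and oocyte markers to at most 4.22 CPM, with Tyrobp and Figla at 0 in all 12 libraries; 0 of 6 leukocyte, 0 of 9 endothelial and 1 of 3 oocyte markers tested had an unadjusted interaction p under 0.05. Markers of the ovarian surface epithelium were abundant and moved with Foxl2 siRNA. Of 18 listed, 17 were tested, and they summed to 5227 to 5502 CPM in scrambled libraries at 30 h and 4543 to 4633 at 54 h, against 7979 to 8373 and 8049 to 9795 CPM with Foxl2 siRNA. Of these 17 genes 6 had an unadjusted interaction p under 0.05 (35.3%), all higher, against 5.33% of all genes higher. The keratin genes Krt18 and Krt8 had interactions of 0.57 ± 0.12 and 0.41 ± 0.11, with control shares of 32.7% and 59.3%, and Msln, mesothelin, one of 1.17 ± 0.34. Granulosa and luteal cells also express keratins, and whether the share of surface epithelium moved with the adhesion, contractile and Sertoli lists was not tested. Theca and stroma markers varied between libraries of the same group, from 431 to 1157 CPM in the scrambled libraries at 30 h, as did those of smooth muscle and pericytes (1081 to 1873 CPM). An unadjusted p under 0.05 was found for 3 of 14 theca and stroma markers, all lower, and 0 of 13 smooth muscle and pericyte markers. The latter still leaned higher, with 11 of 13 interactions above 0 and a median of 0.42, and their median ranged from 0.12 to 0.79 in the fits without 1 library. The median of the theca and stroma list was lowest in replicate 1 and highest in replicate 2 in all 4 groups, from −0.80 to 0.61 in the scrambled libraries at 30 h relative to their mean.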

How the data were processed

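RNA-seq counts per gene were analysed in 15 libraries (5 groups of 3). Per the labels' protocols, stranded poly(A) libraries from 1.3 µg of RNA were read as single 75-base reads; per the submitters' processing notes, the tools were bcl2fastq 2.15.0 and TopHat2, with DESeq2 later, and the build mm10. No source used here names the counter, its gene models or its use of strand, so overlapping genes on opposite strands may share counts. The authors deposited whole-number counts; 15 symbols altered to dates in 1 library were restored. The protocol text names 30 h for every sample; 54 h comes from the titles.

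Counts were fitted with edgeR 4.0.16 (limma 3.58.1, R 4.3.3): TMM scaling, filterByExpr, glmQLFit with 5 group means and 10 residual degrees of freedom, glmQLFTest, and Benjamini-Hochberg adjustment over all 14907 genes (threshold 0.05). CPM are TMM-normalised. Control share is minus the control arm divided by the interaction, in percent. DESeq2 1.42.0 and limma voom were alternatives. The edgeR fit alone was run on simulated counts to check the code, and no result rests on it. Libraries of a group differed by more than sampling noise (chi-square per degree of freedom 6.85 to 122). Spike-ins were 0.105% to 0.352% of counts.

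Named genes are those of lowest interaction p, with a mean of at least 5 CPM, among larger, smaller, opposite-sign and control-driven responses, since 1 gene passed, plus a panel of 25 ovarian genes; list examples were the 3 of lowest p. The 27 gene lists and the named panel were chosen with earlier results of these data known, so a list's count is not independent evidence. Exact permutation of 3 against 3 libraries cannot go below p = 0.1.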

Additional observations from a re-analysis of the deposited data

Results flagged for a closer look

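The Foxl2 siRNA effect on Gadd45b differed between 54 h and 30 h by a log2 interaction of 1.09 (edgeR, adjusted p = 0.00778). It was the single interaction that edgeR called with all libraries, whereas DESeq2 called 210 and limma voom 1056.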

How the results depend on the processing

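The count of called interactions was 1 in the fit of 12 libraries, with the replicate block (numbers as a block), with RLE or upper-quartile scaling and without a low-count filter. DESeq2 called 210 (119 higher, 91 lower; 195 larger at 54 h, 1 smaller, 14 of opposite sign; 13 in the control arm only, 174 in the Foxl2 siRNA arm only). Limma voom called 1056 (487 higher, 569 lower; 898 larger, 1 smaller, 157 opposite; 191 and 701 by arm). When the pair of Foxl2 siRNA libraries with most residual Foxl2 was left out, 836 were called (301 higher, 535 lower; 749 larger, 4 smaller, 83 opposite; 5 and 751 by arm). Flat genes numbered 2385 under limma voom and 2104 without both libraries. Leaving out 1 library gave 1 to 904 calls (1 to 325 higher, 0 to 579 lower; 1 to 820 larger, 0 to 3 smaller, 0 to 81 opposite; 0 to 1 in the control arm only, 1 to 836 in the Foxl2 siRNA arm only) and 338 to 1401 flat genes. Where a replicate is left out its group has 2 libraries, and the spread is shared over all groups. The causes were not tested. Signs that reversed belong to interactions near 0: Esr1 (0.16 under limma voom, −0.22 to 0.16 without 1 library), Sox8 (−0.034 under limma voom), Pgr (−0.037 with the block, −0.049 without both libraries, −0.38 to 0.66 without 1 library), Foxl2 (−0.65 to 0.21), Inha (−0.38 to 0.029), Inhbb (−0.25 to 0.089) and Cyp11a1 (−0.15 to 0.17). Same-numbered libraries deviated together (r over 0.1) in 12 of 18 pairs (r −0.294 to 0.659), so the numbers were not taken to pair the libraries over all 4 groups. All 3 pairs of scrambled libraries did (r 0.143 to 0.632), as did all 6 pairs of replicates numbered 1 (r 0.397 to 0.659); with the block the control arm had 3 calls in place of 1. It had 0 with RLE scaling, without the low-count filter and in the fit of 12 libraries. All 15 libraries have like depth; genes under about 5 CPM, such as Lhcgr and Cyp19a1, are limited by their counts.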
